A study of Mus musculus with 4 samples.

Results

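The genes described here are 10 regulators of the passage from G1 into S phase, namely the D-type cyclins Ccnd1, Ccnd2 and Ccnd3, the E-type cyclins Ccne1 and Ccne2, the kinases Cdk2, Cdk4 and Cdk6, and the inhibitors Cdkn1b and Cdkn2b. They were taken by gene name from a table of 31828 genes, and each of the 10 names matched 1 row. RNA was sequenced from AML12 (alpha mouse liver 12), a line of immortalised hepatocytes from mice carrying a transgene for human TGF alpha. The cells grew flat on plastic (2D) or inside Matrigel, a gel of basement membrane proteins (3D), and each culture gave 2 libraries. Both cultures received 1 mM hydroxyurea, a blocker of nucleotide synthesis used to synchronise cells near the start of S phase. It was left on for 24 h in 2D, from 50% confluence, and for 36 h in 3D, from 24 h after plating. There was no library without hydroxyurea, and the culture and the time in hydroxyurea cannot be told apart. The study reports a G1/S state of the arrested cells of both cultures by flow cytometry.

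In G1, D-type cyclins, whose transcription follows mitogens, bind the kinases Cdk4 and Cdk6, and the active complexes phosphorylate the retinoblastoma protein and its relatives. This releases E2F transcription factors, which switch on the E-type cyclins and the genes of DNA synthesis, and cyclin E with Cdk2 carries the cell into S phase. The INK4 inhibitors, of which Cdkn2b (p15) is a member, bind Cdk4 and Cdk6 themselves, while the Cip/Kip inhibitors, among them Cdkn1b (p27), bind whole cyclin-kinase complexes. In the liver cyclin D1 is the D-type cyclin that is best known to be induced when hepatocytes re-enter the cycle.

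The deposited values are TPM, a length-corrected share of the transcripts in a library, which sum to the same total in every library. They can therefore be compared between genes, they are relative within a library, and they do not tell the sequencing depth, so no counting interval was computed. Between 13891 and 14256 genes reached 1 TPM per library. Hepatocyte markers were uneven, with Krt8 and Krt18 at 1795 TPM or more in every library and albumin at only 0.819 and 1.2 TPM in 2D and 12.7 and 10.0 TPM in 3D, so the line carried little of one defining hepatocyte transcript. Of the 7 hepatocyte markers 4 were higher and 3 lower in 3D, and their summed level, nearly all Krt8 and Krt18, was 9602 and 9401 TPM in 2D and 5352 and 5429 TPM in 3D. Alb, Ttr, Hnf4a and Apoa1 rose, Hnf4a from 56.7 and 57.6 TPM in 2D to 164 and 156 TPM in 3D and Ttr from 3.98 and 3.11 TPM to 88.1 and 80.9 TPM. The 4 endothelial markers summed to between 0.788 and 1.47 TPM and the 5 leukocyte markers to between 2.32 and 4.29 TPM. The 6 stellate or fibroblast markers in the table summed to 35 and 37.6 TPM in 2D and to 19.7 and 18.7 TPM in 3D, of which Des made up nearly all, and Col3a1 was at or near 0. The 4 biliary markers summed to 2235 and 2156 TPM in 2D and to 1505 and 1571 TPM in 3D, carried by Krt19 and Krt7, while Epcam was listed at 0 in 3 libraries. Sox9, also of that list, rose in 3D from 15.2 and 16.5 TPM to 24.2 and 25.4 TPM (limma adjusted p 0.00317). The part of these markers in the results below was not tested.

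Ccnd1, Cdk4 and Cdkn2b rose in 3D, Cdk2 fell, and the other 6 genes did not pass the threshold of an adjusted p-value under 0.05 in a limma fit across all tested genes. All 10 passed the filter of a mean of at least 1 TPM. The count of 4 called out of 10 stands beside 50.5% of all 14116 tested genes called in either direction, 23.4% higher and 27.1% lower in 3D, so the number of calls is no result about these genes. The libraries of the cultures did not overlap for 9 of the 10, with Ccne2 as the exception, beside 77.5% of all tested genes. The median log2 fold change was -0.06 over the 10 genes and -0.04 over all tested genes. RNA from a mixed culture does not separate a larger share of cells in one stage of the cycle from more transcript per cell, and the values below hold for the culture as a whole.

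**Figure D1:**
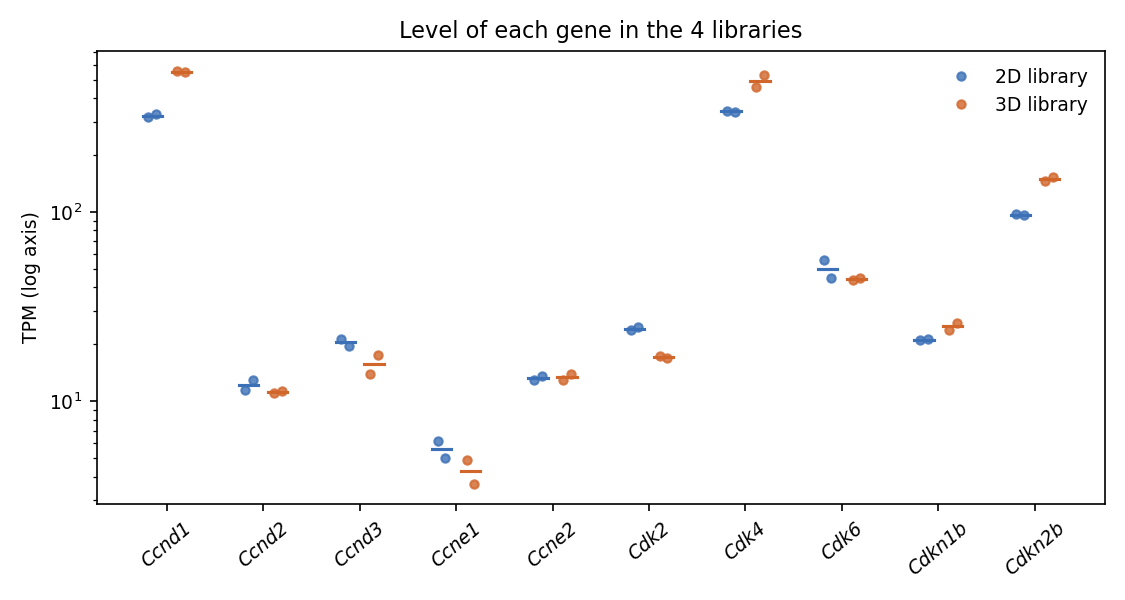
TPM on a log axis for the 10 genes in each library (points) with the mean of each culture (short lines), 2D in blue and 3D in orange, n = 2 each. Ccnd1 and Cdk4 stood at 318 TPM or more in every library and Cdkn2b between 96.0 and 153 TPM, while the other genes lay at or below 55.5 TPM.

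The mean levels of the 10 genes ran from 5.59 to 341 TPM in 2D and from 4.28 to 551 TPM in 3D. In 2D the order by mean TPM was Cdk4, Ccnd1, Cdkn2b, Cdk6, Cdk2, Cdkn1b, Ccnd3, Ccne2, Ccnd2 and Ccne1, and of these neighbours in the order only Cdkn1b and Ccnd3 overlapped between libraries. In 3D Ccnd1 stood above Cdk4 and Cdkn1b above Cdk2, and the rest kept their places. There the overlapping neighbours were Cdk2 with Ccnd3 and Ccnd3 with Ccne2.

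Among the cyclins, Ccnd1, which encodes cyclin D1, showed the largest difference. It lies on chromosome 7 at 144929931 to 144939925 of GRCm38 (ENSMUSG00000070348). Its level was 318 and 329.5 TPM in the 2D libraries and 553 and 548 TPM in the 3D libraries, so both 3D libraries stood far above both 2D libraries and replicates were close to each other. With n = 2 per culture, the mean and SD were 324 ± 8.43 TPM for 2D against 551 ± 4.05 TPM for 3D, a ratio of 1.70. On the log2(TPM + 1) scale the fold change was 0.77 (SE 0.04, limma adjusted p 0.00044), larger than that of 92.6% of tested genes. Fold changes on this scale understate the change of genes with low TPM, which matters for the E-type cyclins more than for Ccnd1.

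The other D-type cyclins, which can replace cyclin D1 as partners of Cdk4 and Cdk6, did not follow it. Ccnd2 (chromosome 6, 127125162 to 127152193) had 11.5 and 13 TPM in 2D and 11 and 11.3 TPM in 3D. The 3D libraries were lower by a small margin, and the difference of -0.12 (SE 0.09, 95% interval -0.35 to 0.11, limma adjusted p 0.301) was within the spread. It was -0.20 without 2D replicate 1 and -0.04 without 2D replicate 2. Ccnd3 (chromosome 17, 47505051 to 47599691) had 21.3 and 19.7 TPM in 2D and 13.9 and 17.5 TPM in 3D, with the 3D libraries lower and further apart from each other than those of 2D. Its log2 fold change of -0.37 (SE 0.13, 95% interval -0.70 to -0.04) had a limma adjusted p of 0.0644. It was -0.53 (limma adjusted p 0.0308) without 3D replicate 2 and -0.22 (limma adjusted p 0.186) without 3D replicate 1. The other 2 libraries left out in turn gave limma adjusted p of 0.126 and 0.211, so the call depends on which 3D library is taken.

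The kinase Cdk4, the main partner of the D-type cyclins in many cells, rose along with Ccnd1. It lies on chromosome 10 at 127063534 to 127067920 (ENSMUSG00000006728). The 2D libraries had 342 and 339.6 TPM and the 3D libraries 459 and 529.8 TPM. The 2D libraries were nearly equal, and the 3D libraries were above them but differed from each other by 14.4% of their mean. The mean rose from 341 ± 1.79 to 494 ± 50.4 TPM (SD, n = 2 each), which is a log2 fold change of 0.53 with SE 0.08 (adjusted p 0.00542 by limma). This fold change was 0.63 without 3D replicate 1 and 0.43 without 3D replicate 2.

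Cdk6, which binds the same cyclins and inhibitors, differed by less. Its level (chromosome 5, 3341485 to 3531008) was 55.5 and 44.7 TPM in 2D and 43.6 and 44.7 TPM in 3D. One 2D library stood above the rest and the other all but equalled the higher 3D library. The log2 fold change was -0.17 (SE 0.11, 95% interval -0.46 to 0.12, limma adjusted p 0.258). It was -0.32 (limma adjusted p 0.0238) without 2D replicate 2 and -0.0188 (limma adjusted p 0.821) without 2D replicate 1, so the reading of Cdk6 depends on which 2D library is taken.

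The kinase of the E-type cyclins, Cdk2, was the 1 member that fell. It lies on chromosome 10 at 128697939 to 128705031 (ENSMUSG00000025358). Its level was 23.7 and 24.8 TPM in 2D and 17.3 and 17.0 TPM in 3D, with both 3D libraries below both 2D libraries and replicates that differed by at most 4.39% of their mean. The mean dropped from 24.3 ± 0.752 to 17.2 ± 0.219 TPM (SD, n = 2 each), which is a log2 fold change of -0.48 with SE 0.06 (adjusted p 0.00454 by limma).

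Its cyclins stayed low in both cultures. Ccne1 (chromosome 7, 38097984 to 38107534), the gene of cyclin E1, had 6.19 and 5.00 TPM in 2D and 4.89 and 3.68 TPM in 3D, the lowest level among the 10 genes, and the higher 3D library was just under the lower 2D library. Its log2 fold change was -0.32 (SE 0.17, 95% interval -0.76 to 0.11, limma adjusted p 0.167), an interval that includes both no change and a sizeable fall. Leaving out single libraries moved it to between -0.49, without 3D replicate 1, and -0.16, without 3D replicate 2. Ccne2 (chromosome 4, 11191351 to 11204779), which encodes cyclin E2, had 13 and 13.7 TPM in 2D and 12.9 and 14.0 TPM in 3D. The cultures overlapped, and the log2 fold change was 0.0065 (SE 0.08, 95% interval -0.20 to 0.21, limma adjusted p 0.951).

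Of the inhibitors, Cdkn2b rose clearly. It lies on chromosome 4 at 89306289 to 89311032 (ENSMUSG00000073802), and its protein, p15, keeps D-type cyclins off Cdk4 and Cdk6. The level was 97.8 and 96.0 TPM in 2D and 145 and 153 TPM in 3D, with both cultures tight and well apart. The mean rose from 96.9 ± 1.29 to 149 ± 5.48 TPM (SD, n = 2 each), which is a log2 fold change of 0.62 with SE 0.05 (adjusted p 0.000991 by limma). The cyclin Ccnd1, its kinase Cdk4 and the inhibitor Cdkn2b were all higher in the same libraries.

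Cdkn1b (chromosome 6, 134920401 to 134925513) lay on the threshold. Its protein, p27, is held in check mainly by degradation, and its transcript stood at 21 and 21.3 TPM in 2D and 23.9 and 25.9 TPM in 3D. Both 3D libraries were above both 2D libraries. The log2 fold change was 0.23 (SE 0.07, 95% interval 0.04 to 0.41), with an unadjusted limma p of 0.0253 and an adjusted p of 0.05, just above the threshold before rounding. Centring on the median, quantile normalization, rescaling and a stricter filter took the limma adjusted p to between 0.0370 and 0.0474. With no filter, a replicate block or a constant prior variance it was 0.108, 0.0856 and 0.0602. Either other pseudocount left it just above 0.05. Leaving out single libraries moved the log2 fold change to between 0.17 and 0.28.

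**Figure D2:**
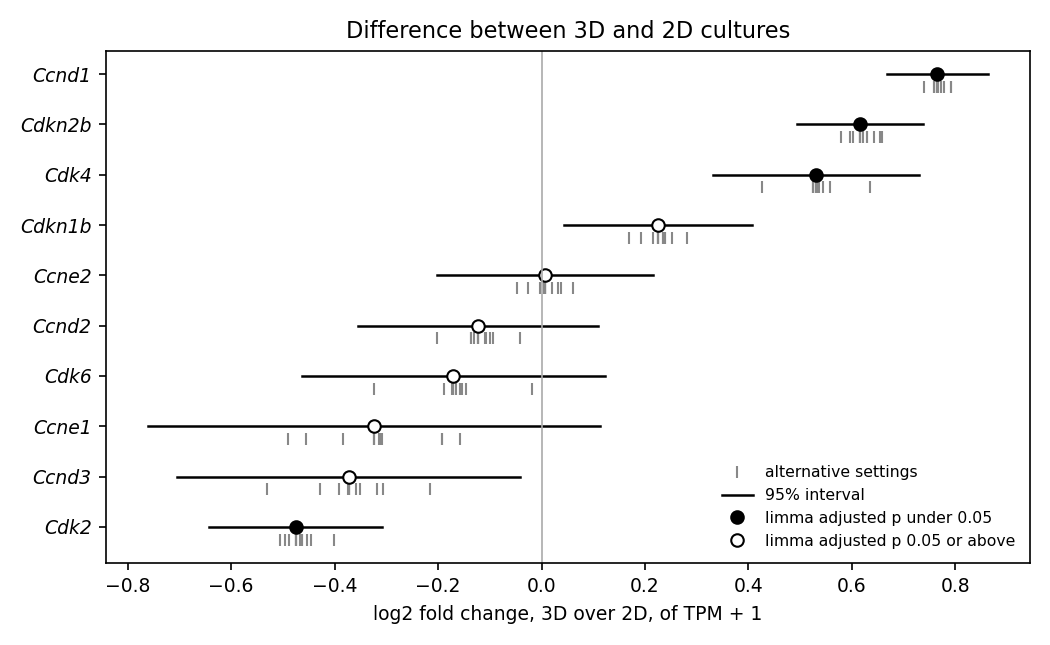
Log2 fold change of TPM + 1, 3D over 2D, for the 10 genes, with 95% intervals of the limma fit for each gene (lines, not adjusted for multiple genes) and the values under the alternative settings (grey ticks). Filled circles have an adjusted p under 0.05 (Ccnd1, Cdkn2b, Cdk4 and Cdk2). Ticks lie on both sides of 0 for Ccne2 only, so ticks on one side do not set the called genes apart.

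Stretches before the start sites of called members are shown, and whether their words go with the direction of change was not tested. RefSeq windows of GRCm38.p6 were found for 7 of the 10 genes, and none was used for Ccnd1, Ccnd2 and Ccne2. Words were searched on both strands in the 250 bases before each start. Below are those of Cdk4 (plus strand, chr10:127063285-127063533), Cdk2 (minus strand, chr10:128705052-128705179) and Cdkn2b (minus strand, chr4:89311040-89311282), 5′ to 3′, cut back to bases outside annotated exons, with matches to the searched words in capitals.
Cdk4: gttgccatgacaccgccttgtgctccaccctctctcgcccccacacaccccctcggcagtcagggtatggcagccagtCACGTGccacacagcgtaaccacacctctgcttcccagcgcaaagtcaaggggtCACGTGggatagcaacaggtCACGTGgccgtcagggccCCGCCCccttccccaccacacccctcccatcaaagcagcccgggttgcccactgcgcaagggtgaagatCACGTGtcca
Cdk2: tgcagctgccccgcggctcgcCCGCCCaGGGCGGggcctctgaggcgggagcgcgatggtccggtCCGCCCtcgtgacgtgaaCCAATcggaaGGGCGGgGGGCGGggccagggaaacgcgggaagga
Cdkn2b: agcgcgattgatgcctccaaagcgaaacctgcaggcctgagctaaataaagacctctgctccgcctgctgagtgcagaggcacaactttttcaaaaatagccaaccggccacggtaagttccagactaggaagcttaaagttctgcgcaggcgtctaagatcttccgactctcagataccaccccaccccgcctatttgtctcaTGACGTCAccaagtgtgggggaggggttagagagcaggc

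The Cdk4 window held 4 copies of the E-box CACGTG, beginning 172, 118, 98 and 11 bases before the start, and 1 GC box (GGGCGG). An E-box of this form, which proteins of the Myc, Max and Usf families are known to bind, was present in 6.02% of 32851 windows of the same length, and 4 or more copies in 7 windows (0.0213%), 1 of them that of Cdk4. Myc itself, named here after its values were seen, had 58.2 and 60.5 TPM in 2D and 45.3 and 49.3 TPM in 3D. It fell by 0.32 (limma adjusted p 0.0139), and a part of Myc in the level of Cdk4 was not tested. Without 2D replicate 2 or 3D replicate 1 Myc did not pass the test (highest limma adjusted p 0.0659). The Cdk2 window held 5 GC boxes and 1 CCAAT box, words found at least once in 32.7% and 33.8% of windows, with 4 or more GC boxes in 4.09%. It also held 1 of the E2F words TTTGGCGC, TTTGCCGC, TTTCCCGC and TTTCGCGC (1.86% of windows), 140 bases before the start in a stretch that is not printed. The Cdkn2b window held none of these and 1 CRE (TGACGTCA, 1.55% of windows), 46 bases before the start. Windows of genes that were not called held such words too, among them 4 GC boxes for Ccne1, 1 E-box for Cdk6 and 2 CCAAT boxes for Cdkn1b. Such matches describe letters and were not tested as sites.

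Because TPM is corrected for length, the makeup of each family was compared within libraries, where the scaling of a library drops out. These ratios are given without a test, since with 2 libraries a culture the lowest p that exact permutation allows, two-sided, is 0.33. Ccnd1 made up 90.6% and 91.0% of the summed TPM of the D-type cyclins in 2D and 95.7% and 95% in 3D. The share of Ccnd3 was 6.09% and 5.44% in 2D and 2.40% and 3.04% in 3D, and that of Ccnd2 was 3.29% and 3.59% in 2D and 1.91% and 1.96% in 3D. The D-type transcripts were thus nearly all those of Ccnd1 in both cultures, and more so in 3D. Their sum was 350.5 and 362 TPM in 2D and 578 and 577 TPM in 3D.

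Among the 3 kinases the share of Cdk4 was 81.2% and 83.0% in 2D and 88.3% and 89.6% in 3D. That of Cdk6 was 13.2% and 10.9% in 2D and 8.40% and 7.55% in 3D, and that of Cdk2 was 5.63% and 6.06% in 2D and 3.33% and 2.88% in 3D. Libraries of the cultures did not overlap in any of these shares, and 77.5% of all tested genes did not overlap in TPM. Here and among the D-type cyclins the shares are tied, so a rise of the largest lowers the others. Cdk6 itself did not pass the test (log2 fold change -0.17, limma adjusted p 0.258). For the E-type cyclins the libraries did overlap, with Ccne2 at 67.8% and 73.2% of the pair in 2D and at 72.5% and 79.2% in 3D.

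**Figure D3:**
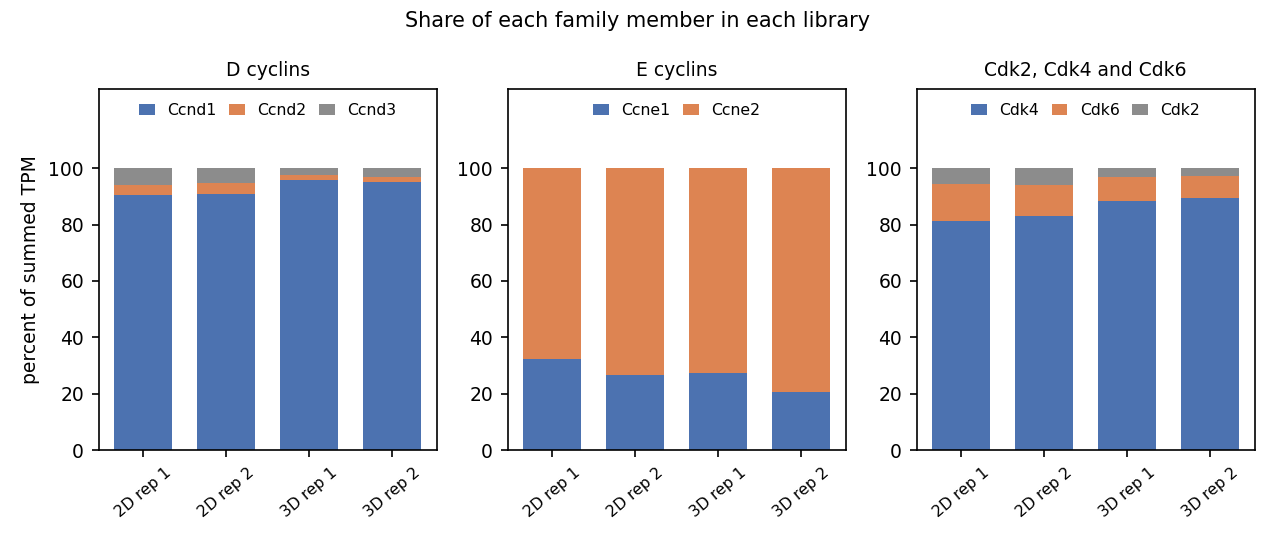
Percent of the summed TPM of each family held by each member, for the D-type cyclins (left), the E-type cyclins (middle) and the kinases (right), 1 bar per library. The Ccnd1 and Cdk4 parts are taller in both 3D libraries, and the E-type cyclins show no such separation.

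Ratios between partners did not overlap between the cultures, but they were not tested, and 77.5% of all tested genes did not overlap in TPM. The D-type cyclins over Cdk4 plus Cdk6 stood at 0.881 and 0.942 in 2D and at 1.15 and 1.00 in 3D. For this ratio and for Cdkn2b over Cdk4 plus Cdk6, the 3D libraries differed by more than the gap between the cultures. The E-type cyclins over Cdk2 stood at 0.811 and 0.753 in 2D and at 1.03 and 1.04 in 3D. The summed E-type cyclins were 19.2 and 18.7 TPM in 2D and 17.8 and 17.6 TPM in 3D. The ratio of Cdkn1b to Cdk2 showed the widest gap between the cultures among these 4 ratios, at 0.884 and 0.859 in 2D and 1.38 and 1.52 in 3D. Of this pair Cdk2 passed the test, as a fall, and Cdkn1b did not. The ratio of Cdkn2b to Cdk4 plus Cdk6 differed less, at 0.246 and 0.250 in 2D and 0.289 and 0.266 in 3D. These are ratios of transcripts and not of proteins.

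Since the study set expression beside genome structure, the nearest tested genes on each side of each member, and tested genes that overlap it, were also read. Of all tested genes 50.5% were called, so a called neighbour is no result in itself. Cdkn2b and its neighbour Cdkn2a, another INK4 gene 11636 bases away on the same strand, were both higher in 3D. The level of Cdkn2a is for the gene as a whole and does not tell its transcripts apart. Cdkn2a had 68.8 and 64.5 TPM in 2D and 101.4 and 124 TPM in 3D, a log2 fold change of 0.74 with SE 0.11 (adjusted p 0.00565 by limma). On the other side the nearest tested gene, Caap1, was 5189049 bases away and fell by 0.27 (limma adjusted p 0.032). Around Cdk4, the overlapping Tspan31 on the opposite strand rose by 0.31 (limma adjusted p 0.00374) and March9, 3350 bases away, by 0.83 (limma adjusted p 0.00072), while the noncoding A730063M14Rik had a log2 fold change of -0.24 (adjusted p 0.0938 by limma).

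Around other members the directions were mixed. Oraov1, which overlaps the end of Ccnd1 on the opposite strand, had 36.0 and 45.9 TPM in 2D and 26.2 and 23.6 TPM in 3D and fell by 0.69 (limma adjusted p 0.0134), against the rise of Ccnd1. The call of Oraov1 was lost without 3D replicate 2 (limma adjusted p 0.0671). The next tested genes, Bc1 and Tpcn2, did not pass the test (0.17 and -0.03, limma adjusted p 0.679 and 0.877). Next to Cdk2, Rab5b rose by 0.60 and Dgka fell by 0.43 (limma adjusted p 0.00164 and 0.00221), and the overlapping Pmel had -0.26 (limma adjusted p 0.157). Trp53inp1, a p53 target 16972 bases from Ccne2, rose from 320.1 and 323 TPM to 661 and 663 TPM (log2 fold change 1.04, limma adjusted p 0.00023), beside a Ccne2 that did not pass the test, and Ints8 and Dpy19l4 had -0.14 and -0.06 (limma adjusted p 0.0964 and 0.641).

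For the remaining genes, Ccnd2 lay between Tigar and Parp11, which fell by 0.42 and 0.59 (limma adjusted p 0.010 and 0.00574). Ccnd3 overlaps Bysl, which fell by 0.34 (limma adjusted p 0.0113), and lies between Taf8, which rose by 0.31, and Med20, which fell by 0.62 (limma adjusted p 0.0337 and 0.00138). Next to Ccne1, Uri1 had -0.25 (limma adjusted p 0.179) and 1600014C10Rik rose by 0.31 (limma adjusted p 0.0303). The antisense gene Gm42435 inside Cdk6 fell by 0.98 (limma adjusted p 0.00882), and the flanking Gm15772 and Fam133b had 0.08 and 0.06 (limma adjusted p 0.166 and 0.428). On either side of Cdkn1b, 2810454H06Rik and Lockd both had -0.40 (limma adjusted p 0.0607 and 0.0534). Of the neighbours called, Caap1 lost its call under 6 of 13 alternatives, Taf8 and 1600014C10Rik under 5, Bysl under 2 and Tigar under 1. The libraries were stranded, but how reads in overlaps were divided was not tested.

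**Figure D4:**
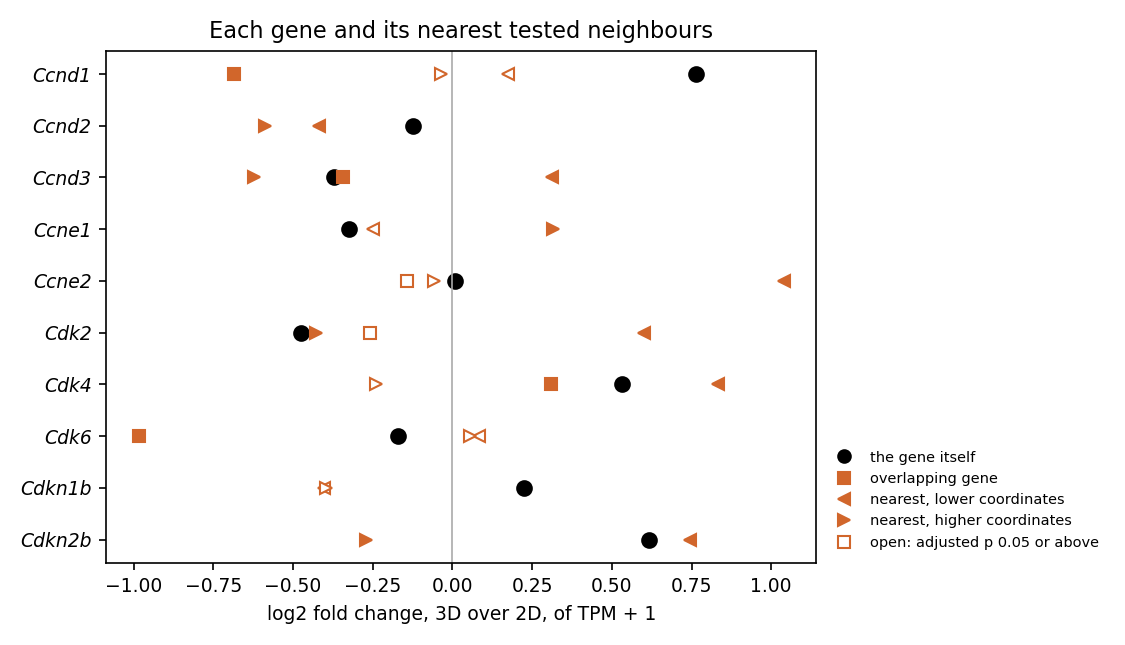
Log2 fold change of TPM + 1, 3D over 2D, of each of the 10 genes (black circles) and of its overlapping (squares) and nearest tested neighbours (triangles), the neighbours filled where the adjusted p is under 0.05. Cdkn2b, Cdk4 and Cdk2 each have a called neighbour in their own direction. Cdkn2b and Cdk2 also have a called neighbour in the opposite direction (Caap1 at -0.27 and Rab5b at 0.60). Ccnd1 at 0.77 stands opposite the overlapping Oraov1 at -0.69. Of all tested genes 50.5% were called.

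Genes that act with the 10 were read from lists chosen for their role, and each list stands beside the 50.5% of all tested genes called and their median of -0.04. The cyclins and the kinase of the later cycle fell together. All 4 tested genes among cyclin A, cyclin B and Cdk1 were lower in 3D, with a list median of -0.72. Cdk1, the mitotic kinase, had 60.4 and 66.1 TPM in 2D and 34.2 and 28.7 TPM in 3D, a log2 fold change of -0.99 (adjusted p 0.00227 by limma). Ccna2, which partners Cdk2 in S phase, fell by 0.81 (limma adjusted p 0.000521), Ccnb2 by 0.62 and Ccnb1 by 0.51 (limma adjusted p 0.00116 and 0.00197).

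Of the other CDK inhibitors 2 of 4 tested were higher, 0 were lower and the list median was 0.07 (-0.13 with no filter on low values). Besides Cdkn2a, whose level does not tell its transcripts apart, these included Cdkn1a (p21), the main p53-driven inhibitor. Cdkn1a stood at 2805 and 2759 TPM in 2D and 3364 and 3323 TPM in 3D (log2 fold change 0.27, limma adjusted p 0.00259). That level was above all of the 10 genes in every library. Cdkn2c and Cdkn2d, the remaining INK4 genes, had -0.13 and -0.38 (limma adjusted p 0.139 and 0.0548).

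The pocket proteins, E2F and DP factors, which the kinases act on, gave 2 higher and 5 lower of 13, with a median of -0.08. With either 3D library left out the counts were 1 higher and 3 lower. E2f7, a repressor that is itself induced by E2F, had 43.7 and 49.2 TPM in 2D and 18.9 TPM in both 3D libraries, a log2 fold change of -1.25 (adjusted p 0.000652 by limma). Rbl2 (p130) and E2f4, which together form repressor complexes in resting cells, rose by 0.52 and 0.40 (limma adjusted p 0.0162 and 0.00309). Rb1, the retinoblastoma gene, fell by 0.31, and Tfdp1, the DP partner of E2F factors, by 0.28 (limma adjusted p 0.012 and 0.00784). Rbl2 and Rb1 lost their calls with either 3D library left out, and Tfdp1 without 3D replicate 1, with limma adjusted p of at most 0.0780. In the MuvB core, which joins Rbl2 and E2f4 in the DREAM repressor, 1 of 5 was higher and 1 lower, with a median of 0.02 (-0.01 to 0.09 over the alternatives). These were Rbbp4, which rose by 0.21, and Lin37, which fell by 0.45 (limma adjusted p 0.0162 and 0.0051), while Lin52 had 0.08 (limma adjusted p 0.297). The call of Rbbp4, the 1 higher gene, was lost with either 3D library left out.

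Genes that set the phosphorylation of CDKs gave 0 higher and 4 lower of 8, with a median of -0.41. Cdc25c, a phosphatase that activates Cdk1, fell by 0.62 and Mnat1, a part of the CDK-activating kinase, by 0.55 (limma adjusted p 0.00127 and 0.00511). Pkmyt1, named after its values were seen, also fell, by 0.59 (limma adjusted p 0.00306). The list joins kinases and phosphatases of CDKs, so its counts give no direction of CDK activity, which was not tested. The other parts of the CDK-activating kinase, Ccnh and Cdk7, had 0.04 and 0.07 (limma adjusted p 0.542 and 0.736).

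Parts of the ubiquitin ligases that degrade G1/S regulators gave 2 higher and 4 lower of 13, with a median of -0.04 (0.04 without 3D replicate 1). The higher count was 1 without 3D replicate 1, with the replicate block, with no filter and with a constant prior variance. Fbxo31, which has been reported to target cyclin D1, had 11.2 and 12.3 TPM in 2D and 29.1 and 30.2 TPM in 3D, a log2 fold change of 1.27 (adjusted p 0.000635 by limma). It rose in the same libraries as the Ccnd1 transcript, and any part in the degradation of cyclin D1 was not tested. Ambra1, also of this list and named after its values were seen, had 0.15 (limma adjusted p 0.310). Dtl fell by 0.98 (limma adjusted p 0.000628). Named after their values were seen, Skp2 and Cks1b, which direct p27 to degradation, fell by 0.71 and 0.78 (limma adjusted p 0.0175 and 0.00206). Skp2 lost its call with either 2D library left out (highest limma adjusted p 0.0819). The abundant Ddb1 fell by 0.32 (limma adjusted p 0.00306), while Skp1a and Rbx1 had 0.19 and -0.25 (limma adjusted p 0.0527 and 0.0569).

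Inputs to the D-type cyclins and to Cdkn2b were read last. The ERK pathway response genes, which report mitogen signalling upstream of Ccnd1, were split, with 3 higher and 5 lower of 13 and a median of -0.01 (-0.02 to 0.02 over the alternatives). Ier3 and Dusp6 rose by 0.95 and 0.78 (limma adjusted p 0.000308 and 0.000447), while Fosl1 and Phlda1 fell by 0.89 and 0.40 (limma adjusted p 0.000996 and 0.0026). TGF-beta is known to induce Cdkn2b in epithelial cells, and its early response genes gave 1 higher and 4 lower of 7 tested, with a median of -0.39. Pmepa1, a feedback inhibitor of the pathway, had 114 and 119 TPM in 2D and 78.0 and 80.9 TPM in 3D and fell by 0.55 (limma adjusted p 0.00152). The 1 higher gene, Bhlhe40, had 0.19 (limma adjusted p 0.0442), a call lost under 6 of 13 alternatives, among them the replicate block and 3 of the 4 fits with a library left out. Tgif1 had 0.20 (limma adjusted p 0.110). Whether TGF-beta signalling differed between the cultures, or acted on Cdkn2b, was not tested.

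**Figure D5:**
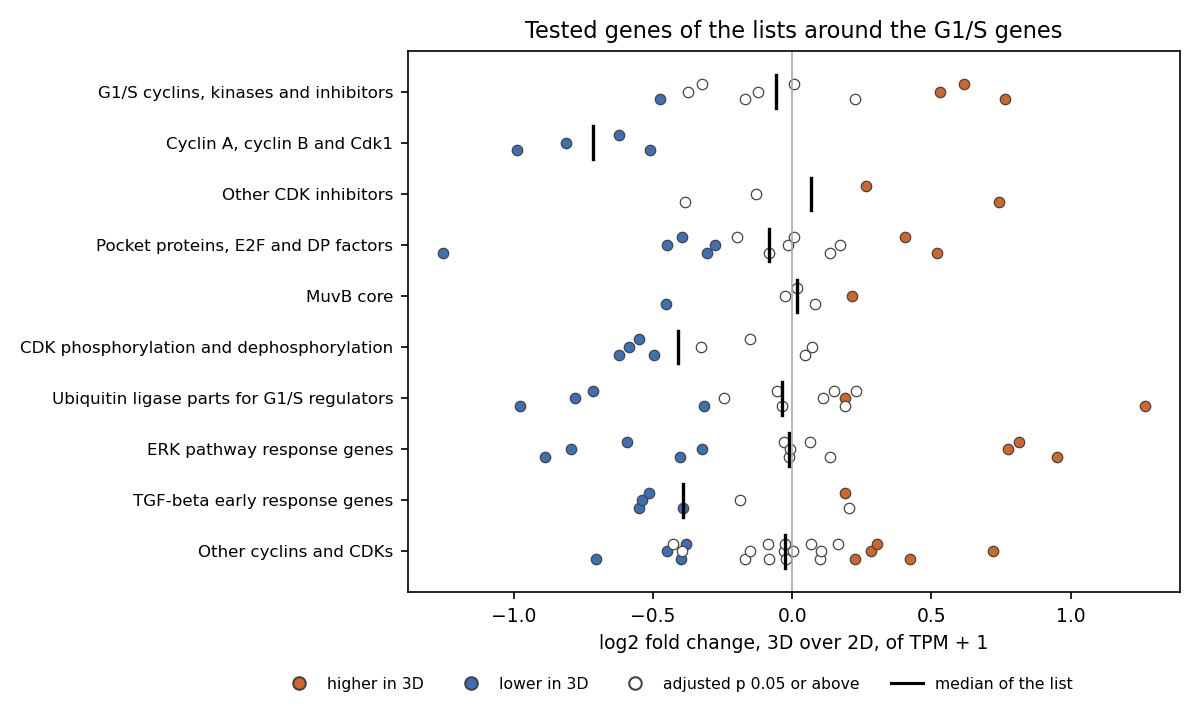
Log2 fold change of TPM + 1, 3D over 2D, for every tested gene of the 10 G1/S genes and of the lists around them, orange for higher and blue for lower at an adjusted p under 0.05, open otherwise, with the list median as a black line. The 4 tested genes of cyclin A, cyclin B and Cdk1 all lie at or left of -0.51, whereas the G1/S genes spread from -0.48 to 0.77.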

How the data were processed

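The mRNA of AML12 cells was sequenced in 2 libraries from 2D and 2 from 3D cultures with a stranded kit. Per the labels and the methods of the study, the authors used cutadapt 1.8.3 and then Trimmomatic 0.36 for trimming, HISAT2 2.0.5 for alignment to GRCm38, and StringTie 1.3.4 for the levels of Ensembl genes. The TPM values were deposited by the authors, 1 column per library without pooling. The fold changes and p-values of the authors' own DESeq2 comparison, also in the table, were not used. Depth is unknown from TPM.

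Genes with a mean of at least 1 TPM entered a limma fit (version 3.58.1, R 4.3.3) of log2(TPM + 1) on culture alone, with a trended and robust prior variance, two-sided p-values and Benjamini-Hochberg adjustment over all tested genes. The labels do not say whether replicates were separate cultures, so p-values measure the spread between these libraries, which may be technical. The script was tested on simulated data. The position of 9 of the 10 genes was the same in GENCODE M21 and that of Cdkn2b differed slightly. Sequences came from RefSeq (GRCm38.p6), and figures from matplotlib 3.10.9 with Python 3.11.15.

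The 10 genes, the lists and the rule for named genes were chosen with earlier results of these data known. The rule takes the 10 genes, from each list the 3 with the highest mean TPM and those with the highest and lowest fold change, and overlapping and nearest tested neighbours. One gene that the rule takes is not reported here. The settings varied were the pseudocount (0.1 or 5), the filter (none, or a mean of 5 TPM), median centring, quantile normalization, rescaling without mitochondrial and the 20 highest genes, a replicate block, a constant prior variance, and each library left out.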

Additional observations from a re-analysis of the deposited data

How the results depend on the processing

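The count of genes among the 10 that were higher in 3D stayed within 3 to 4 and that of lower genes within 1 to 2 over 13 alternatives. Ccnd1, Cdkn2b, Cdk4 and Cdk2 kept their direction and an adjusted p under 0.05 in all 13. Leaving out each library gave 3 higher and 1 to 2 lower genes, the second being Cdk6 or Ccnd3, and the lone library of a culture is then assumed to vary like the others. The sign of Ccne2, which did not pass the test, turned under quantile normalization (-0.0025), and its fold change ranged from -0.0469 to 0.0600 with a library left out, below 0 without 2D replicate 1 and without 3D replicate 2. The cause was not tested.

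Same-numbered libraries did not deviate together (correlation -0.0549 across 14116 genes), and equal numbers were not taken as pairs. Adding the replicate block left 3 of the genes higher and 1 lower, with 6248 genes called in all, against 7122 without it, so the block changed no call among the 10. Over all genes the count fell to 4720 without 3D replicate 1, and 5977 of 31828 genes were called with no filter. TPM keeps no depth, so precision at low levels such as those of Ccne1 could not be judged from counts.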

Other observations

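The cyclins and kinases outside the G1/S step, 25 listed and 23 tested, gave 5 higher and 4 lower genes in 3D, with a median log2 fold change of -0.02 (-0.06 to 0.0014 over the alternatives). The 39.1% called stands beside 50.5% called over all tested genes. Without 3D replicate 1 the counts were 3 higher and 1 lower, and with the replicate block 4 higher and 6 lower. Ccng2, a cyclin associated with arrested cells, had 26.3 and 23.2 TPM in 2D and 41.2 and 41.5 TPM in 3D, a log2 fold change of 0.72 (adjusted p 0.00262 by limma). Ccni rose by 0.30 (limma adjusted p 0.00285). Ccnt1, the cyclin of the transcription elongation kinase Cdk9, had 111 and 117 TPM in 2D and 70.9 and 68.8 TPM in 3D and fell by 0.70 (limma adjusted p 0.00087). Ccng1, a p53 target and the most abundant gene of this list, had 2547 and 2562 TPM in 2D and 2504 and 2497 TPM in 3D, with a log2 fold change of -0.0306 (adjusted p 0.402 by limma), and Ccnl1 had 0.16 (limma adjusted p 0.0539).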
